A study of Mus musculus with 24 samples.

Results

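MHC class II molecules display peptides from swallowed proteins to CD4+ T cells, and the genes for their chains, their chaperone, their peptide loading factors and their transactivator were followed here across all 6 treatment groups of a study of ileal fragments. The set was given as 7 gene symbols, and each was matched to its Ensembl identifier in the deposited counts: H2-Aa (ENSMUSG00000036594), H2-Ab1 (ENSMUSG00000073421), H2-Eb1 (ENSMUSG00000060586), Cd74 (ENSMUSG00000024610), H2-DMa (ENSMUSG00000037649), H2-DMb1 (ENSMUSG00000079547) and Ciita (ENSMUSG00000022504). All 7 of 7 were found among 57126 identifiers, and all 7 were among the 13125 genes that passed the filter on low counts. The rule that defines the set names symbols and uses no measured value, but the set was chosen with earlier results of these data known.

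The fragments came from the ileum of wild-type male C57BL/6J mice that had been starved for 4 h, and were cultured for 8 h with an additive before QuantSeq, a 3' tag method that gives about 1 read per mRNA near its polyadenylated end. The additives were tauro-conjugated chenodeoxycholic acid (tCDCA), a bile acid and ligand of the nuclear receptor FXR; extracts of Asbt-/- or wild-type (WT) mice in the forms CME(-) and CME(+); and the solvent DMSO. Asbt carries bile acids into ileal cells. A genotype in a group's name belongs to the mouse that gave the extract, and the cultured tissue was wild-type throughout. The labels do not say what CME stands for, and CME(+) is read here as the form depleted of bile acids, because a concentration of 200 µM is stated for replicates 2 to 4 of CME(-), and of tCDCA, and for no CME(+) replicate. Of 24 libraries, 4 per group, 21 were used: all 4 of tCDCA, of WT CME(-) and of Asbt-/- CME(+), and 3 each of Asbt-/- CME(-), WT CME(+) and DMSO. The submitters removed DMSO replicate 1, which had 0.5% DMSO against 0.6% in the others, and, for reads that mapped poorly, replicate 3 of Asbt-/- CME(-) and replicate 2 of WT CME(+). Whether the fragments in a group were from different animals is not stated. The p-values therefore reflect the spread among these libraries only, part of which may be technical.

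Column names carry 1 prefix for replicate 1 of each group and another for replicates 2 to 4. These sets are called the first and the second run here, although the labels do not say what the prefixes stand for. DMSO has no used first-run library. Levels are CPM, counts scaled to the size of the library with TMM factors, given for the second run with the first-run library beside them. Total counts were 2.76 to 5.6 M per used library. Mitochondrial rRNA took 5.29 to 34.6% of the counts in the second run, lowest in tCDCA replicate 3, and 6.78 to 8.29% in the first.

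Class II molecules are dimers of an α and a β chain. In the mouse H2-Aa and H2-Ab1 encode the chains of I-A, and H2-Eb1 encodes the β chain of I-E, whose α chain gene is not functional in C57BL/6 mice. New dimers bind the invariant chain, encoded by Cd74, which blocks the groove and guides them to endosomes. There proteases such as cathepsin S (Ctss) cut the invariant chain down, and H2-DM, made of H2-DMa and H2-DMb1, exchanges the last fragment for a peptide. Ciita, the class II transactivator, binds no DNA itself and is recruited to promoters by RFX, CREB and NF-Y factors that sit on the X and Y boxes. It is constitutive in B cells and dendritic cells and is induced by interferon gamma in many other cells, including epithelium of the small intestine.

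The boxes that Ciita acts through can be read in the promoters, and 3 are shown because they carry both cores at nearly the same distance. RefSeq windows on the build GRCm38.p6, 250 bases before to 50 after each gene's start, were at hand for 4 of the 7 genes: H2-Aa, H2-Eb1, H2-DMa and H2-DMb1. H2-Ab1, Cd74 and Ciita are named only. The counts were made on GRCm39, so these coordinates were joined to the counts by symbol alone. Capitals mark the X core (GNAACT), the bases that continue it, and the Y core (GATTGG), each read 5′ to 3′ on the gene's own strand.
H2-Aa, chr17:34287774-34288073 (- strand): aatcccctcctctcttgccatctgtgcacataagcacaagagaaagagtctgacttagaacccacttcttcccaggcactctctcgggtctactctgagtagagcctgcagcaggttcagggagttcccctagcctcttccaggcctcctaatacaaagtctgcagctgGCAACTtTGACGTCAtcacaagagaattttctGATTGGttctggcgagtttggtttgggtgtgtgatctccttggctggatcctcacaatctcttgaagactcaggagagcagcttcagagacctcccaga
H2-Eb1, chr17:34305617-34305916 (+ strand): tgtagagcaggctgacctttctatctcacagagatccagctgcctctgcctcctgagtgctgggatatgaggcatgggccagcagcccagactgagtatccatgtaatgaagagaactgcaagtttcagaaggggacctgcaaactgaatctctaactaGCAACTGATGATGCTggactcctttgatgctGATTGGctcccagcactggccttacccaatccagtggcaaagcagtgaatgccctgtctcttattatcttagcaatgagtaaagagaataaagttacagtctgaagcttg
H2-DMb1, chr17:34152941-34153240 (+ strand): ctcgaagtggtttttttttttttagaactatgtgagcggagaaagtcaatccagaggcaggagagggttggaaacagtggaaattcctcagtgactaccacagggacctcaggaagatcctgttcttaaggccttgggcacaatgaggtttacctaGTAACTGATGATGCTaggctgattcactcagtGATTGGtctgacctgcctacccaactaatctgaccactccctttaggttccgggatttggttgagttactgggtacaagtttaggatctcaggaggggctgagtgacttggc

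The Y core began 49, 60 and 62 bases before the start in H2-Aa, H2-Eb1 and H2-DMb1, and 26, 25 and 26 bases lay between the cores. In H2-Aa the X core was followed 1 base later by TGACGTCA, the X2 sequence that CREB factors bind. H2-Eb1 and H2-DMb1 shared the run AACTGATGATGCT over their X core. These letters were chosen after the sequences had been seen, so the counts are a description. Of 32851 mouse windows of the same length, 0.667% held GNAACT followed by GATTGG within 15 to 60 bases on either strand, and 0.344% on the gene's strand. GATTGG alone was in 16.1%, GNAACT alone in 42.8%, TGACGTCA in 1.79%, and AACTGATGATGCT in 3 windows (0.009%), all on either strand. The 2 windows of H2-DMa did not hold the pair.

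No class II gene passed the test in any of the 14 comparisons, and the lowest levels were mostly those with tCDCA. The group means of the second run put tCDCA last for 6 of 7 genes, the exception being H2-DMa. The share of all genes with tCDCA last was not counted, so how unusual this is cannot be read from it. The spread between replicates was wide: of 35 neighbouring pairs of groups in the order of levels, 6 had a gap over their pooled SD, and 3 did not overlap.

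**Figure D1:**
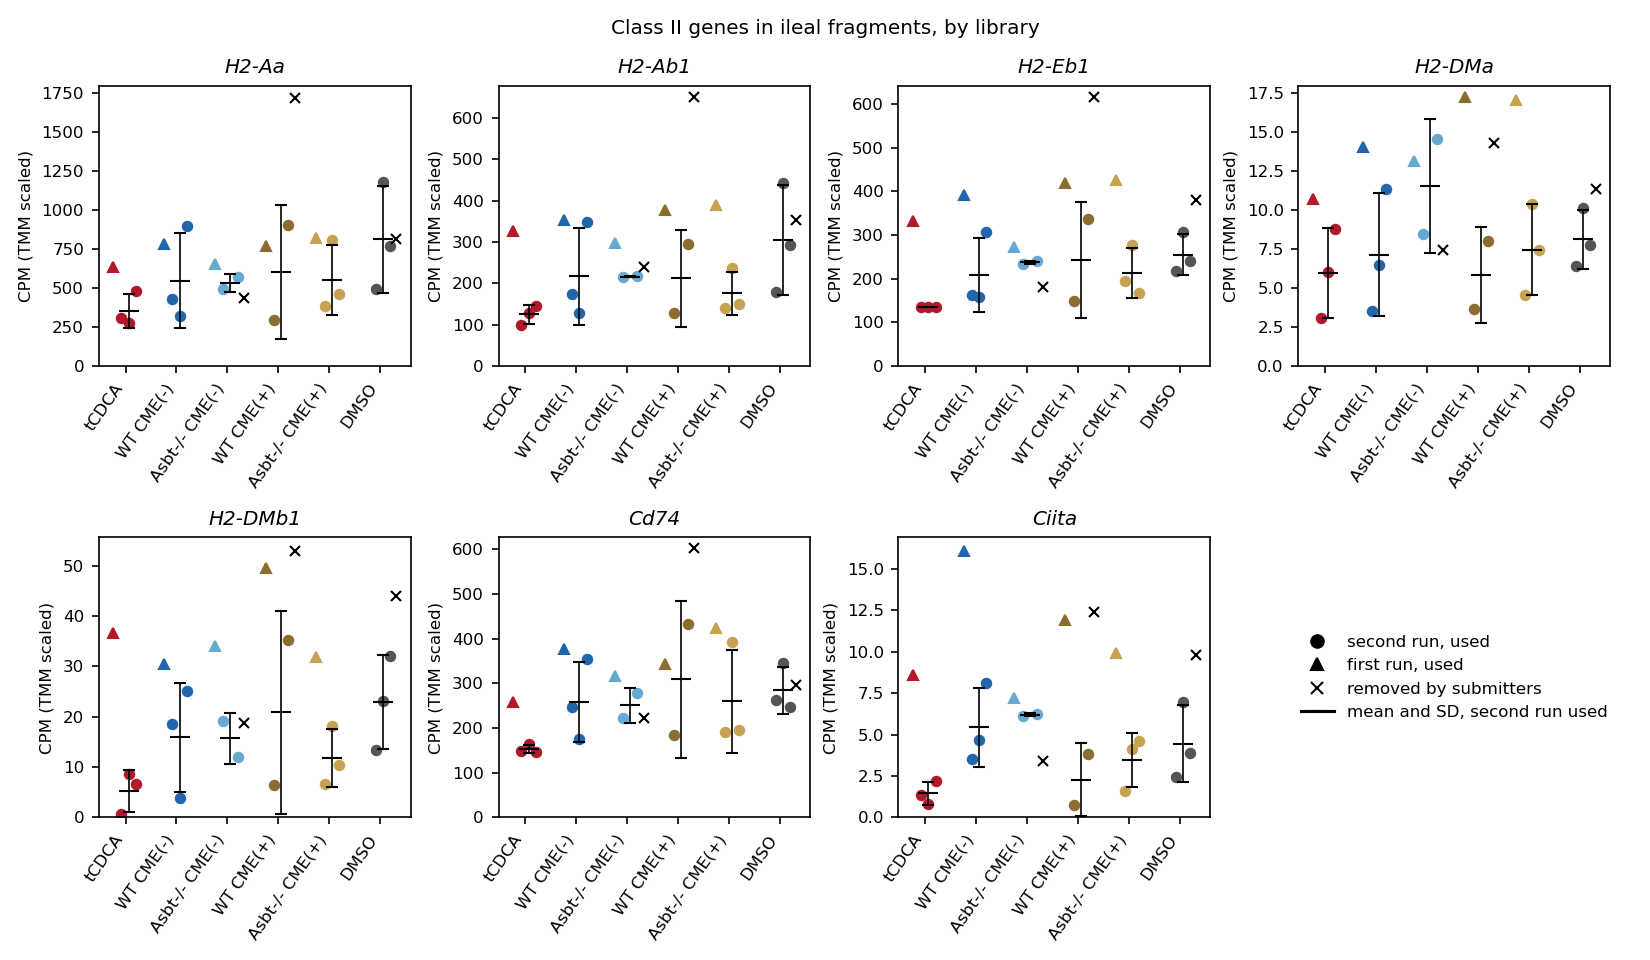
Level of each class II gene in CPM (TMM scaled, linear axes from 0) in every library, by group. Circles are used second-run libraries with their mean and SD, triangles first-run libraries and crosses the libraries removed by the submitters. H2-Eb1 was 134 to 135 CPM in the second-run tCDCA libraries, below every other library shown, and the share of all genes with such a gap was not counted.

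Of the chains, H2-Aa, the I-A α chain gene, was at 311, 275 and 479 CPM in tCDCA replicates 2, 3 and 4, at 430, 318 and 896 with WT CME(-), at 492 and 573 with Asbt-/- CME(-), at 298 and 908 with WT CME(+), at 388, 807 and 462 with Asbt-/- CME(+), and at 496, 1180 and 767 with DMSO. All 3 tCDCA libraries lay below all 3 of DMSO, while each extract overlapped DMSO. Means were 355 ± 109 CPM with tCDCA (SD, n = 3), 548 ± 306 with WT CME(-) (n = 3), 532 ± 57.1 with Asbt-/- CME(-) (n = 2), 603 ± 431 with WT CME(+) (n = 2), 553 ± 224 with Asbt-/- CME(+) (n = 3) and 813 ± 342 with DMSO (n = 3). In the order of means only Asbt-/- CME(-) and tCDCA, at the low end, were neighbours that did not overlap.

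H2-Ab1, the I-A β chain gene, was at 99.0, 129 and 145 CPM in tCDCA replicates 2 to 4. The extracts had 174, 128 and 349 CPM (WT CME(-)), 215 and 217 (Asbt-/- CME(-)), 129 and 296 (WT CME(+)), and 140, 236 and 151 (Asbt-/- CME(+)). DMSO had 179, 444 and 293 CPM. Again tCDCA was below DMSO in every library, and the spread within DMSO was larger than the gap between its lowest library and the highest of tCDCA.

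H2-Eb1 varied least. Its second-run tCDCA libraries were at 135, 135 and 134 CPM, lower than every second-run library of every other group. How many of all genes were lowest with tCDCA in this way was not counted. The extracts had 163, 157 and 306 CPM (WT CME(-)), 234 and 240 (Asbt-/- CME(-)), 148 and 336 (WT CME(+)), and 194, 278 and 167 (Asbt-/- CME(+)), and DMSO had 218, 308 and 240 CPM. The other I-E chain could not be followed: the locus listed for H2-Ea, annotated as a pseudogene, was at 0 in all libraries.

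Cd74, the invariant chain gene, was at 148, 164 and 147 CPM in tCDCA replicates 2 to 4, against 262, 345 and 248 with DMSO. WT CME(-) had 247, 176 and 355 CPM, Asbt-/- CME(-) 223 and 279, WT CME(+) 185 and 433, and Asbt-/- CME(+) 191, 392 and 195. As for H2-Eb1, the 3 tCDCA values were below every other second-run library, and every extract overlapped DMSO. Here too the share of all genes with tCDCA below every other group was not counted. The highest mean was that of WT CME(+), 309 ± 175 CPM (n = 2), whose libraries lay further apart than the means of any groups.

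The H2-DM genes had few counts. H2-DMa was at 3.05, 6.00 and 8.79 CPM in tCDCA replicates 2 to 4 and at 6.42, 10.1 and 7.75 with DMSO, and the tCDCA values overlapped those of every other group. The group means ran from 5.81 ± 3.07 CPM with WT CME(+) (n = 2) to 11.5 ± 4.28 with Asbt-/- CME(-) (n = 2), and tCDCA (5.95 ± 2.87, n = 3) overlapped DMSO (8.10 ± 1.88, n = 3). H2-DMb1 was at 0.678, 8.61 and 6.59 CPM with tCDCA, the first from 2 counts, against 13.4, 23.1 and 32.1 with DMSO. It was the least steady of the 7, with a 51.8-fold range over the second run and a dispersion above that of 95.3% of all genes tested. Its near-identical neighbour H2-DMb2, at 0 to 9.22 CPM in the used second-run libraries, makes it uncertain, since shared reads could have been divided between the copies.

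Ciita, the transactivator, was at 1.36, 0.783 and 2.20 CPM in tCDCA replicates 2 to 4, from 4, 3 and 7 counts. It was at 3.54, 4.67 and 8.11 CPM with WT CME(-), 6.15 and 6.27 with Asbt-/- CME(-), 0.727 and 3.84 with WT CME(+), 1.61, 4.16 and 4.63 with Asbt-/- CME(+), and 2.44, 6.99 and 3.88 with DMSO. The tCDCA libraries lay below all of DMSO, and both CME(-) groups had higher means (6.21 ± 0.0869 CPM for Asbt-/- donors, n = 2, and 5.44 ± 2.38 for WT donors, n = 3) than DMSO (4.44 ± 2.32, n = 3). No neighbouring means in its order differed by more than their pooled SD. Its second-run values rest on 2 to 25 counts per used library.

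The question of the main comparison is what a single bile acid does against the solvent. With tCDCA all 7 class II genes were lower than with DMSO, by a median log2 change of -1.11, beside a median of 0 over all genes tested, and none was called at an adjusted p under 0.05 by edgeR's quasi-likelihood test. Of all genes, 5.68% were called in this comparison, 3.16% of all as lower. An unadjusted p under 0.05 was reached by 6 of 7, all but H2-DMa, against 8.83% of all genes in that direction. The 7 genes varied together across the used second-run libraries, with pairwise r from 0.56 to 0.95. Counts out of 7, here and below, are therefore not counts of separate observations. Other settings crossed the threshold. DESeq2 called 3 as lower, H2-Ab1, H2-Eb1 and Cd74, with 5.78% of the genes it tested called lower. A fit of the tCDCA and DMSO libraries alone called the same 3 (1.68% of its genes lower), and testing without the count filter called H2-Eb1 and Cd74 (1.6% lower).

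The 3 chains were at -1.11 ± 0.43 (H2-Aa, log2 with SE; 2.16-fold lower; edgeR adjusted p = 0.174), -1.16 ± 0.39 (H2-Ab1, 2.24-fold, adjusted p = 0.104) and -0.80 ± 0.28 (H2-Eb1, 1.74-fold, adjusted p = 0.108). Cd74 was at -0.83 ± 0.30 (1.78-fold, adjusted p = 0.12). Of the loading factors, H2-DMa was at -0.47 ± 0.41 (adjusted p = 0.616) and H2-DMb1 at -1.54 ± 0.70 (adjusted p = 0.267). Ciita was at -1.19 ± 0.55, 2.27-fold lower, with an adjusted p of 0.241. The second-run libraries of tCDCA and DMSO did not overlap for 6 of 7 genes, all but H2-DMa, which was so for 9.78% of all genes with tCDCA lower.

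DMSO replicate 3 had the highest H2-Aa, H2-Ab1, H2-Eb1, Cd74, H2-DMa and Ciita of the 3 used DMSO libraries, and the median change was -0.72 without it. Across all leave-one-out fits the median ran from -1.37 to -0.72, and no class II gene was called in any of them. In the first run, which has no replicate, tCDCA replicate 1 was lower than the removed DMSO replicate 1 for 7 of 7 genes, by a median log2 ratio of -0.19 (-0.36 to -0.08), so the gap there was smaller than in the second run; the difference between runs was not tested. H2-Aa was at 634 and 813 CPM in those libraries, Cd74 at 259 and 296, and Ciita at 8.62 and 9.78.

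**Figure D2:**
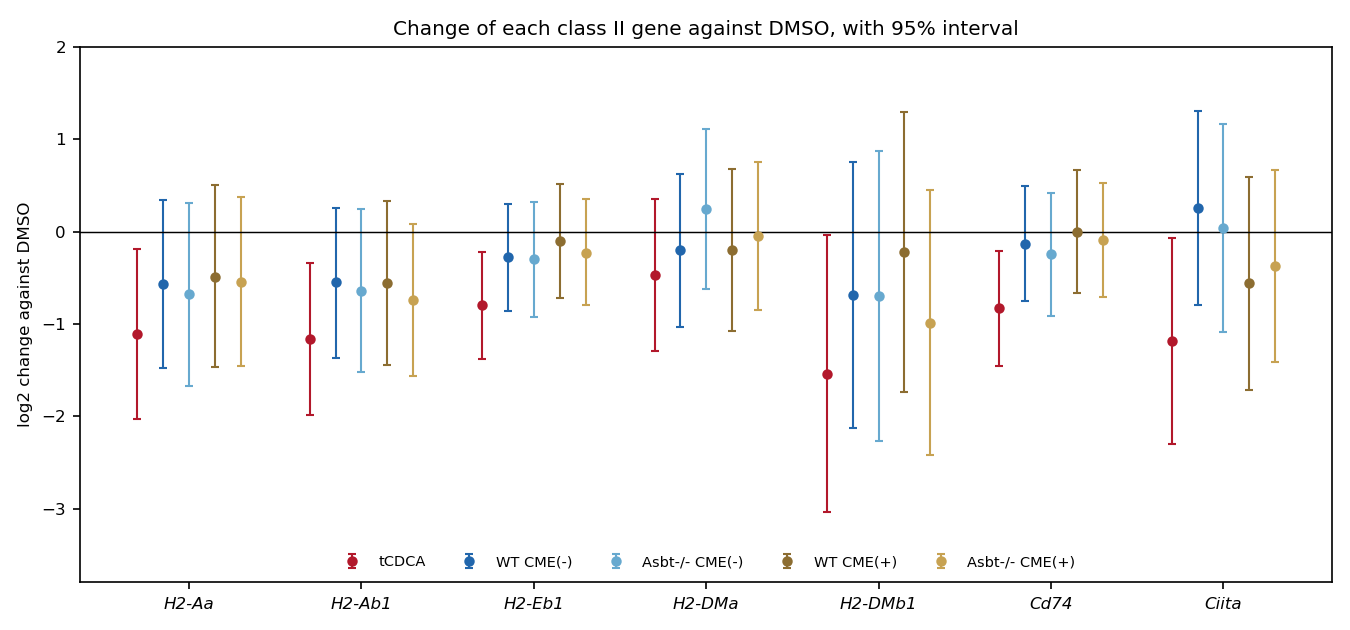
Log2 change of each class II gene in tCDCA and in each extract against DMSO (edgeR), with 95% intervals; the zero line marks no change. The tCDCA interval lies below 0 for every gene except H2-DMa, and every extract interval crosses 0.

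The extracts lay nearer to DMSO. No class II gene was called by edgeR or by DESeq2, or had an unadjusted p under 0.05, in any of the 4 comparisons, where 4.93% (WT CME(-)), 6.51% (Asbt-/- CME(-)), 4.71% (WT CME(+)) and 7.46% (Asbt-/- CME(+)) of all genes were lower at that p. The second-run libraries of extract and DMSO overlapped for all 7 genes, where 6.82, 14.2, 12.1 and 11.2% of all genes were lower without overlap, in that order. These 4 and the tCDCA comparison share the same 3 DMSO libraries. With WT CME(-) 6 of 7 were lower than with DMSO (median log2 -0.28, from -0.69 to 0.26), in a comparison that called 0.297% of all genes. With Asbt-/- CME(-) 5 of 7 were lower (median -0.30, from -0.70 to 0.25; 0.952% of genes called). With WT CME(+) the median was -0.22 (from -0.56 to 0.00; 0.175% called), and with Asbt-/- CME(+), where 7 of 7 were lower, it was -0.37 (from -0.99 to -0.05; 2.31% called).

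H2-Aa and H2-Ab1 were the chains furthest from DMSO with the extracts. H2-Aa was at -0.57 (95% interval -1.48 to 0.34) with WT CME(-), -0.68 (-1.67 to 0.31) with Asbt-/- CME(-), -0.49 (-1.47 to 0.50) with WT CME(+) and -0.55 (-1.46 to 0.37) with Asbt-/- CME(+). H2-Ab1 was at -0.55 (-1.37 to 0.26), -0.64 (-1.52 to 0.24), -0.56 (-1.44 to 0.33) and -0.74 (-1.56 to 0.08) in the same order. Intervals this wide include both no change and a change as large as the one estimated for tCDCA. Single libraries moved all of these values by over 1.5 times. Without DMSO replicate 3 the median over the 7 genes was -0.13 with WT CME(-), -0.15 with Asbt-/- CME(-), -0.10 with WT CME(+) and -0.07 with Asbt-/- CME(+), and H2-Aa was at -0.21, -0.32, -0.12 and -0.18 in that order. Without DMSO replicate 2 the median was -0.49 with WT CME(+) and -0.66 with Asbt-/- CME(+). Among the extract libraries, the WT CME(-) median was -0.17, -0.16 and -0.55 without its replicate 2, 3 or 4, and that of WT CME(+) was -0.43, 0.11 and -0.80 without its replicate 1, 3 or 4. The Asbt-/- CME(-) median was -0.17 without its replicate 1, and that of Asbt-/- CME(+) was -0.17 without its replicate 2. With no run term the medians were 0.00 with WT CME(-), -0.05 with Asbt-/- CME(-), 0.24 with WT CME(+) and 0.06 with Asbt-/- CME(+). For WT CME(+) both chains were at 0.20 when the 3 removed libraries were put back.

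Set against the extracts directly, tCDCA was again lower for all 7 genes in each of the 4 comparisons, and edgeR called none. The median log2 change was -0.61 against WT CME(-), where 0.541% of all genes were called, -0.59 against Asbt-/- CME(-) (0.114%), -0.63 against WT CME(+) (1.55%) and -0.56 against Asbt-/- CME(+) (1.93%). Leaving out 1 library brought the median to -0.28 against WT CME(-) (without its replicate 4), to -0.32 against Asbt-/- CME(+) (without its replicate 3), and to -0.33 or -0.95 against WT CME(+) (without its replicate 4 or 3). The number with an unadjusted p under 0.05 was 2, 1, 2 and 2 of 7 in that order, beside 5.17, 3.76, 6.61 and 6.35% of all genes that were lower at that p. These comparisons share the 4 tCDCA libraries with each other and with the DMSO comparison. DESeq2 called Cd74 against WT CME(+) (-0.84, adjusted p = 0.0399) and against Asbt-/- CME(+) (-0.74, adjusted p = 0.0392), with 2.18% and 3% of genes called lower, and no class II gene against either CME(-) extract. Without the count filter Cd74 was called lower against WT CME(-) (0.363% of genes lower), and Cd74 and H2-Eb1 against WT CME(+) (0.677%) and Asbt-/- CME(+) (0.734%). With all 24 libraries Cd74 was called lower against WT CME(+) (2.05%).

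Cd74 and H2-Eb1 were the members whose second-run tCDCA libraries lay below all libraries of each extract. Beside them, Ciita did so against WT CME(-), making 3 of 7 genes where 7.44% of all genes did, and H2-Aa, H2-Ab1, H2-DMb1 and Ciita did so against Asbt-/- CME(-), making 6 of 7 where 12.1% did. Against WT CME(+) and Asbt-/- CME(+) the count was 2 of 7, beside 14.7% and 9.5% of all genes. Ciita had the largest change against WT CME(-), -1.45 ± 0.48, with an edgeR adjusted p of 0.201, and against Asbt-/- CME(-), -1.23 ± 0.53, with an adjusted p of 0.513. Cd74 was at -0.70 ± 0.27 against WT CME(-) (edgeR adjusted p = 0.338), -0.59 ± 0.29 against Asbt-/- CME(-) (0.628), -0.84 ± 0.29 against WT CME(+) (0.197) and -0.75 ± 0.27 against Asbt-/- CME(+) (0.21), and at -0.37 against WT CME(+) without that extract's replicate 4. In the first run tCDCA replicate 1 was lower than WT CME(+) replicate 1 for 7 of 7 genes and lower than Asbt-/- CME(-) replicate 1 for 3 of 7.

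Between extracts no class II gene was called. If CME(+) is the depleted form, as it is read here, the comparison of CME(-) with CME(+) asks what the bile acids in an extract add. For Asbt-/- donors the median log2 change was 0.10 (from -0.16 to 0.41), with 4 of 7 genes higher. For WT donors it was -0.09 (from -0.47 to 0.82), with 2 of 7 higher. Neither comparison called a class II gene with edgeR or DESeq2 or reached an unadjusted p under 0.05, and of all genes they called 0.0229% (Asbt-/- donors) and 0% (WT donors), with 3.75 and 3.37% lower at an unadjusted p under 0.05. Ciita was at 0.41 ± 0.50 between the Asbt-/- forms and at 0.82 ± 0.51 between the WT forms (edgeR). These values ran from 0.14 (without Asbt-/- CME(-) replicate 4) to 0.96 (without Asbt-/- CME(-) replicate 1), with 0.16 and 0.21 without replicate 2 of Asbt-/- CME(-) or of Asbt-/- CME(+), and from 0.44 (without WT CME(+) replicate 3) to 1.20 among WT forms, where all 24 libraries gave 0.10. Its 2 second-run Asbt-/- CME(-) libraries, 6.15 and 6.27 CPM, were above the 3 of Asbt-/- CME(+), 1.61, 4.16 and 4.63 CPM, the only class II gene without overlap there, where 14% of all genes were higher without overlap. Asbt-/- against WT donors gave a median of -0.09 for CME(-), with 6 of 7 genes lower, and of -0.09 for CME(+), with 5 of 7 lower, and the difference between the form contrasts of the donors gave 0.09, with 0% of all genes called in each. No unadjusted p was under 0.05 among the 7, where 2.05, 1.99 and 1.97% of all genes were lower at that p. The sign of each of the 5 medians of this paragraph turned when single libraries were left out.

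Extracts of the same donor mouse were used in both forms, so donors can be followed. With WT replicate 3 H2-Aa was low in both forms, 318 CPM with CME(-) and 298 with CME(+), and with WT replicate 4 it was high in both, 896 and 908. WT replicate 2 did not follow: CME(-) was at 430 CPM and the removed CME(+) library at 1720. Among Asbt-/- donors, replicate 2 had 492 CPM with CME(-) and 388 with CME(+), and replicate 4 had 573 and 462. Asbt-/- replicate 3 did not follow. Its removed CME(-) library was at 438 CPM, below those of replicates 2 and 4, and its CME(+) library was at 807, above theirs.

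The 7 genes varied together across libraries. Over the 16 used second-run libraries, the 21 pairwise correlations of their log2 CPM ran from r = 0.56 to 0.95, with a median of 0.72, and among H2-Aa, H2-Ab1, H2-Eb1 and Cd74 the lowest was 0.86. Each gene against the mean of the other 6 gave r from 0.72 for H2-DMa to 0.94 for H2-Ab1, with 0.73 for Ciita. These are descriptions over libraries that include the treatment groups and share their depth and scaling. The mean over the 7 genes, each centred (a class II index in log2 units), was -1.25, -0.69 and -0.38 in tCDCA replicates 2, 3 and 4, and -0.01, 0.88 and 0.49 in those of DMSO. With the extracts it ran from -0.80 in WT CME(+) replicate 3 to 0.85 in WT CME(-) replicate 4, and its pooled SD between replicates was 0.58. The 3 tCDCA libraries were thus among the 6 lowest of the 16, with WT CME(+) replicate 3, Asbt-/- CME(+) replicate 2 and WT CME(-) replicate 3.

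The genes most like the index were sought by Pearson r over the same 16 libraries, among 7806 genes with a mean log2 CPM of at least 3. The 10 highest were Upp1, a uridine phosphorylase gene (r = 0.86), Slc39a4, which encodes a zinc importer of enterocytes (0.84), Apoe, a lipoprotein component (0.84), B2m, the light chain of class I molecules (0.83), Prkra, an activator of the kinase PKR (0.83), Amn, a part of the receptor for intrinsic factor and cobalamin (0.80), Irf8, an interferon regulatory factor of myeloid and B cells (0.79), Gpt, an alanine aminotransferase (0.79), Ctss, the cathepsin named above (0.79), and Rdh7, a retinol dehydrogenase (0.79). Spearman's rho of these 10 was 0.74 to 0.88, and the median r over all genes ranked was 0. After each gene was centred within its group these 10 had r from 0.66 to 0.92. Without tCDCA replicate 2 and DMSO replicate 3, the libraries furthest apart in the index, they had r from 0.66 to 0.84.

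Genes of class I presentation, which load peptides for CD8+ T cells, were followed as a neighbouring route. Of 12 tested, 3 fell with tCDCA against DMSO and none rose, and the median log2 change of the 12 was -0.60. B2m was at 603 ± 64.8 CPM with tCDCA and 1120 ± 198 with DMSO (n = 3 each), a log2 change of -0.72 ± 0.20 (edgeR adjusted p = 0.0213). Tapbp, which encodes tapasin of the loading complex, was at 84.4 ± 11.6 and 152 ± 19.7 CPM (-0.79 ± 0.17, adjusted p = 0.00201), and the heavy chain gene H2-K1 at 466 ± 42.3 and 700 ± 95 CPM (-0.54 ± 0.16, adjusted p = 0.0367). Of the other heavy chain genes in the list, H2-D1 was at -0.14 ± 0.17 (edgeR adjusted p = 0.753) and H2-T23 at 0.03 ± 0.28 (adjusted p = 0.974). The summed CPM of the 12 genes followed the class II index with r = 0.88 (Spearman's rho 0.90), with 0.85 after centring within groups, and with 0.85 without tCDCA replicate 2 and DMSO replicate 3.

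Around the class II route itself, Ctss fell: 66.5 ± 13.1 CPM with tCDCA against 138 ± 16.9 with DMSO (n = 3 each), a log2 change of -0.96 ± 0.18 with an edgeR adjusted p of 0.000395. Of 6 genes for endosomal proteases and the reductase Ifi30 it was the only one called, and their median was -0.07. Another of them, Ctsl, rose with tCDCA against WT CME(+) (0.66 ± 0.16, adjusted p = 0.0203) and against Asbt-/- CME(+) (0.71 ± 0.14, adjusted p = 0.00355). None of the 7 RFX, NF-Y and CREB genes was called with tCDCA against DMSO (median -0.12), and their summed level had r = -0.07 with the class II index, -0.44 after centring within groups and -0.30 without tCDCA replicate 2 and DMSO replicate 3. None of 5 tested other chains and modulators (median -0.42) or 5 costimulation genes (median -0.10) was called there either.

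Interferon gamma is the textbook inducer of Ciita. None of the 7 tested genes of its signalling was called with tCDCA against DMSO (median -0.36), nor was any of 15 tested interferon gamma induced genes, a list that holds Ciita and Irf1 too (median -0.44, 12 of 15 lower). Irf1, a transcription factor gene induced by interferon gamma, was at -0.21 ± 0.34 (edgeR adjusted p = 0.84). Ifng itself had 0 or 1 count in each used second-run library and was not tested. The summed level of the signalling genes had r = 0.68 with the class II index, and 0.69 after centring within groups. For the induced genes these values were 0.55 and 0.71. Without tCDCA replicate 2 and DMSO replicate 3 the r was 0.53 for signalling and 0.50 for induced genes. The part of interferon gamma in the class II values was not tested. With Asbt-/- CME(+) against DMSO 14 of the 15 were lower (median -0.66) and Gbp4 fell, by 1.66 on the log2 scale (SE 0.41, adjusted p = 0.0268), as did H2-K1 of the class I list (-0.70 ± 0.16, adjusted p = 0.0114).

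**Figure D3:**
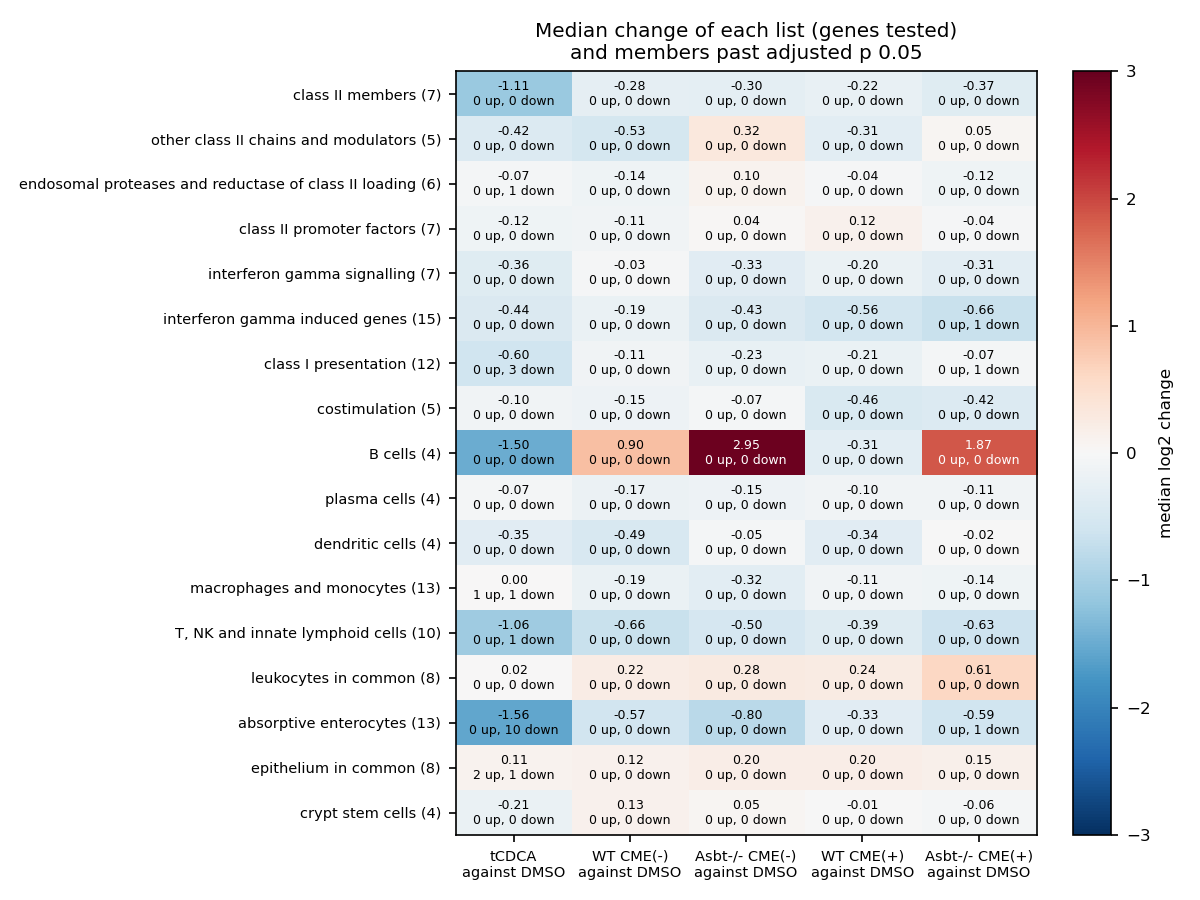
Median log2 change of each gene list against DMSO (colour and upper number in a cell) with the number of its genes that rose or fell at an edgeR adjusted p under 0.05 (lower number); the number of genes tested stands beside the list's name. The class II row has its lowest median, -1.11, with tCDCA, where 0 of 7 were called and 10 of 13 absorptive enterocyte genes fell.

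Markers of epithelial and immune cell types, whether or not they carry class II, were read beside these values. Absorptive enterocyte genes moved most with tCDCA against DMSO: 10 of 13 fell and none rose (median -1.56), among them the brush border enzyme genes Anpep (-1.55 ± 0.22) and Mgam (-1.20 ± 0.18). Their summed level was 5520 to 9120 CPM with tCDCA and 11700 to 15600 with DMSO in the second run. Of the general epithelial genes 2 rose, Krt18 and Krt19, and Krt20, a gene of mature cells, fell (8 tested, median 0.11). The summed level of 15 markers of T, NK and innate lymphoid cells was 17.0 to 27.4 CPM with tCDCA and 37.6 to 72.3 with DMSO. Their part in the class II values was not tested. In bulk fragments fewer cells of a type and less RNA per cell cannot be told apart.

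B cells, dendritic cells and macrophages are the usual carriers of class II outside the epithelium. Of 12 B cell markers 4 were tested and none was called with tCDCA against DMSO, and the 12 summed to 0.522 to 3.14 CPM with tCDCA, with 8 to 11 of them at 0, and to 1.75 to 3.88 CPM with DMSO, with 8 or 9 at 0. Of 11 dendritic cell markers 4 were tested and none was called (median -0.35). They summed to 11.0 to 15.6 CPM with tCDCA and 12.8 to 19.2 with DMSO. Of 13 macrophage and monocyte genes Cd14 rose (0.93 ± 0.26) and Mertk fell (-1.21 ± 0.35), and their sums overlapped, 148 to 174 CPM with tCDCA and 152 to 163 with DMSO. Genes of leukocytes in general had a median of 0.02 over 8 tested and none called, plasma cell genes -0.07 over 4 and crypt genes -0.21 over 4, also with none called.

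The library with most B cell RNA was in the first run. Asbt-/- CME(+) replicate 1 had 147 summed CPM of B cell markers, against 4.1 to 32 in the other used first-run libraries, and its H2-Aa was at 821 CPM, against 634 to 786 there. It was also the highest used first-run library for H2-Ab1 (390 CPM), H2-Eb1 (426) and Cd74 (424). For H2-DMa (17 CPM), H2-DMb1 (31.8) and Ciita (9.92) it was not. Across the 16 second-run libraries the class II index had r = 0.31 with the summed B cell markers, 0.30 with dendritic cells, 0.29 with macrophages and monocytes, 0.64 with absorptive enterocytes and 0.77 with T, NK and innate lymphoid cells. After centring within groups these were 0.06 for B cells, 0.19 for dendritic cells, 0.73 for macrophages and monocytes, 0.57 for absorptive enterocytes and 0.69 for T, NK and innate lymphoid cells. Sums mostly follow the most abundant genes of a list. Without centring, the median r of the single tested genes was 0.07, 0.26, -0.18, 0.61 and 0.36 for these lists in that order. The index had r = 0.08 with the mitochondrial rRNA share and -0.10 with total counts.

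**Figure D4:**
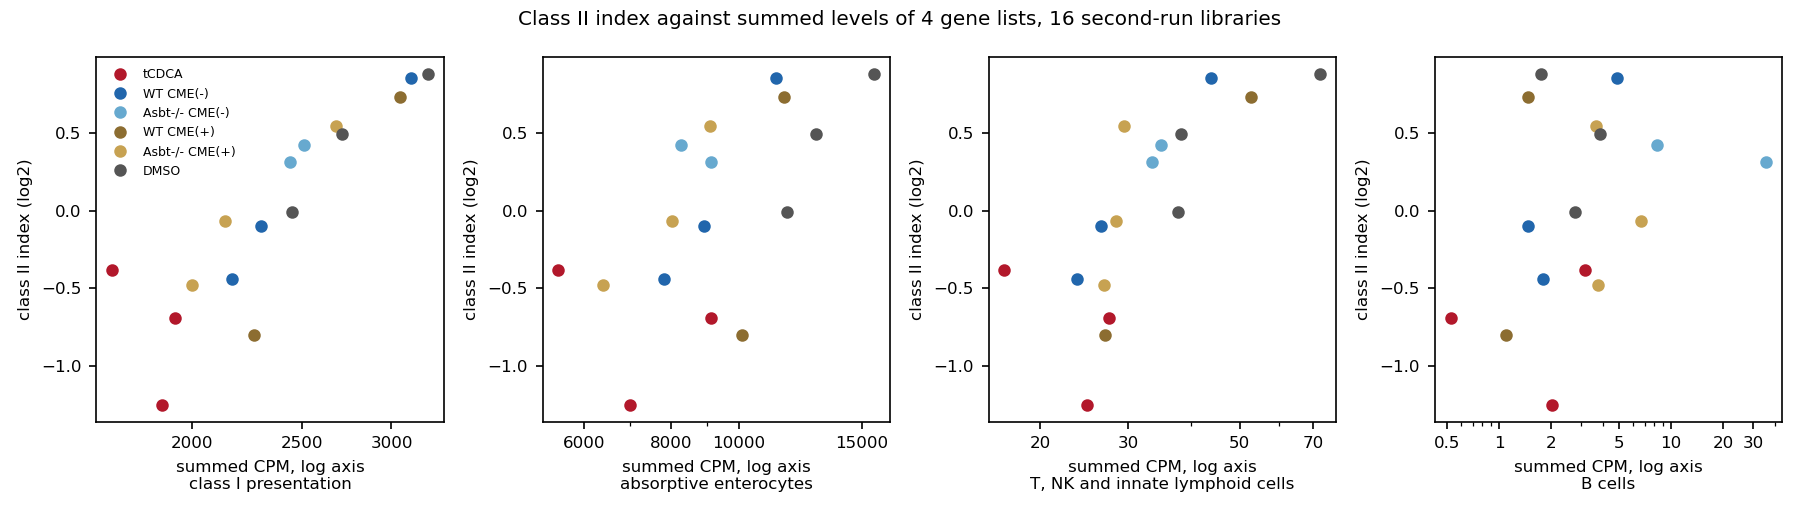
Class II index (mean centred log2 CPM of the 7 genes) against the summed CPM of 4 gene lists on log axes, 1 point per used second-run library, coloured by group. The index is higher where the class I list is higher (r = 0.88), less so for the B cell list (r = 0.31), where Asbt-/- CME(-) replicate 2 lies far to the right at 35.7 CPM.

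Levels were set beside each other by run, with no test of the difference. H2-Aa was at 275 to 1180 CPM in the 16 used second-run libraries (median 486), against 634 to 821 in the 5 used first-run libraries, and H2-Ab1 at 99 to 444 (median 176) against 298 to 390. H2-Eb1 was at 134 to 336 CPM (median 206) in the second run against 272 to 426 in the first, and Cd74 at 147 to 433 (median 235) against 259 to 424. All second-run medians were below the lowest first-run library. H2-DMa was at 3.05 to 14.5 CPM (median 7.58) in the second run against 10.7 to 17.2 in the first, H2-DMb1 at 0.678 to 35.2 (median 12.8) against 30.5 to 49.6, and Ciita at 0.727 to 8.11 (median 3.86) against 7.23 to 16.1. The fitted effect of the second run, a log2 change, was smallest for Cd74 (-0.52) and largest for Ciita (-1.66). The ranges of the 2 runs overlapped for all 7 genes. Without the run term in the model the median change of the 7 genes with tCDCA against DMSO was -0.67.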

How the data were processed

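Raw counts per gene for 24 libraries, whole numbers without normalization, were deposited in a single table. The submitters' processing notes name HISAT2, cutadapt, Picard and FastQC and the build GRCm39. How reads were counted, on which strand and over which annotation is not given in the sources used here. Symbols came from GENCODE M21, which named 51884 of 57126 identifiers, holding 88.4% of the counts; 3 list genes were matched through older symbols. Counts of the 21 used libraries (2.76 to 5.6 M each) were fitted in R 4.3.3 with edgeR 4.0.16: filterByExpr, TMM scaling and a robust quasi-likelihood model with group and run. The 14 contrasts were tested two-sided, each adjusted by Benjamini-Hochberg over 13125 genes and called at an adjusted p under 0.05, with 95% intervals. The common biological coefficient of variation was 0.266. Levels are CPM over all 24 libraries after TMM; log2 CPM for correlations used a prior count of 1. The code was tested on simulated data. Replicates all differed by more than sampling noise (chi-square over its degrees of freedom at least 6.7).

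The 7 genes and 16 further lists (162 listed genes with the 7) were chosen with earlier results of these data known. Named are the 7 genes in every contrast, up to 4 called genes with the smallest p per other list and contrast (not all are printed, and some items are not reported here), and the 10 genes most like the class II index. H2-D1, H2-T23, Irf1 and Ifng were added for their roles, after their values had been seen. DESeq2 1.42.0 and other settings were tried as alternatives, described at the end. Extract donors named in the labels pair CME(-) with CME(+) libraries. The deviations of the 4 pairs that could be formed from their group means correlated at -0.01 to 0.05, and a fit with the donor as block called no class II gene. The labels of 3 libraries have CAM in place of CME; their titles set the group.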

Additional observations from a re-analysis of the deposited data

Results flagged for a closer look

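In the tCDCA group, 1 library stood far from the other 3 for 2 of the class II genes. H2-Eb1 was at 332 CPM in tCDCA replicate 1 and at 134 to 135 in replicates 2 to 4. Cd74 was at 259 CPM in tCDCA replicate 1 and at 147 to 164 in replicates 2 to 4. That library is the only tCDCA library of the first run, in which the other groups had 272 to 426 CPM of H2-Eb1 and 296 to 424 of Cd74. Of 21 groups of 4 libraries looked at (7 genes in 3 treatments), 2 were marked in this way, and chance marks about 1 in 20.

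WT CME(+) replicate 2, which the submitters removed for poor mapping and which entered no comparison, was above the highest used DMSO library for all 7 genes. H2-Aa was at 1720 CPM there, against 496 to 1180 with DMSO, H2-Ab1 at 650 against 179 to 444, and H2-Eb1 at 616 against 218 to 308. Cd74 was at 603 CPM against 248 to 345. H2-DMa was at 14.3 CPM against 6.42 to 10.1, and H2-DMb1 at 53 against 13.4 to 32.1. Ciita was at 12.4 CPM against 2.44 to 6.99. In the same library B cell markers summed to 49.4 CPM, against 1.09 and 1.48 in the used second-run WT CME(+) libraries, and Ptprc, the common leukocyte antigen gene, was at 38.7 CPM against 9.81 and 15.7. Their part in the class II values was not tested.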

How the results depend on the processing

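With edgeR as reported, 0 of 7 class II genes were called in each comparison, and every fit that left out 1 replicate also called 0 (lowest 0, highest 0). Calls appeared under other settings, always as lower with tCDCA. Against DMSO, DESeq2 called 3 (H2-Ab1, H2-Eb1 and Cd74, adjusted p 0.026, 0.0227 and 0.02), a fit of the compared groups only called 3, again H2-Ab1, H2-Eb1 and Cd74 (0.0243, 0.031 and 0.0385; 1.68% of its genes were called lower), and testing without the count filter called 2, H2-Eb1 and Cd74 (1.6%). Against WT CME(-) no count filter called 1, Cd74 (0.363% of genes lower). Against WT CME(+) DESeq2 called 1 (2.18%) and all 24 libraries called 1 (2.05%), each Cd74, and no count filter 2, H2-Eb1 and Cd74 (0.677%). Against Asbt-/- CME(+) DESeq2 called 1, Cd74 (3%), and no count filter 2, H2-Eb1 and Cd74 (0.734%). The cause of these differences was not tested.

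Among single genes the direction turned in few cases. H2-Aa and H2-Ab1 with WT CME(+) against DMSO were at 0.20 and 0.20 with all 24 libraries. H2-DMa with tCDCA ran from -0.51 to 0.01 against WT CME(-) and from -0.55 to 0.02 against WT CME(+) when single replicates were left out, and was at 0.02 against WT CME(+) in the second run alone. Without DMSO replicate 3 Ciita with tCDCA against DMSO was at -0.72. Cd74 with tCDCA against WT CME(+) was at -0.37 without WT CME(+) replicate 4.

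Labels number the replicates alike in each group. With a replicate block the class II median for tCDCA against DMSO was -1.14, Cd74 was at -0.84 (edgeR adjusted p = 0.122) and Ciita at -1.24 (0.224), and no class II gene was called in any comparison; with a block by extract donor the CME(-) against CME(+) median was 0.25 for Asbt-/- and 0.05 for WT donors. Same-numbered libraries did not deviate together (r from -0.11 to 0.08 over 35 pairs).

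The number of all genes called with tCDCA against DMSO was 746, from 176 without the run term to 993 with DESeq2; it was 298 in the compared groups only, 327 when DMSO replicate 3 was left out and 496 when tCDCA replicate 4 was. In the other comparisons with tCDCA or DMSO it moved by over 1.5 times in some settings, from the lowest to the highest as follows: 39 (2 to 115), 125 (3 to 297), 23 (1 to 95) and 303 (3 to 532) for WT CME(-), Asbt-/- CME(-), WT CME(+) and Asbt-/- CME(+) against DMSO, and 71 (0 to 196), 15 (0 to 81), 203 (0 to 405) and 253 (3 to 437) for tCDCA against them; between extracts no setting called over 75. Depth limits Ciita and the H2-DM genes most, with as few as 2 counts per library for Ciita and H2-DMb1 and 9 for H2-DMa.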

Other observations

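The level of Ciita relative to H2-Aa, as a ratio of CPM within a library, was not the same in all groups. It was 0.00285 to 0.00459 with tCDCA, 0.00821 to 0.0147 with WT CME(-), 0.0109 to 0.0125 with Asbt-/- CME(-), 0.00244 to 0.00423 with WT CME(+), 0.00414 to 0.01 with Asbt-/- CME(+) and 0.00493 to 0.00594 with DMSO in the used second-run libraries. The 5 CME(-) libraries were thus all above the 3 DMSO libraries. The first run did not repeat this order, with 0.0136 for tCDCA, 0.0205 for WT CME(-), 0.011 for Asbt-/- CME(-), 0.0154 for WT CME(+) and 0.0121 for Asbt-/- CME(+). Ciita had at most 25 counts in any used second-run library, the ratio was singled out after its values had been seen, and no test was run on it.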
